A study of Mus musculus with 15 samples.

Results

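The 9 genes Ptf1a, Prdm13, Pax2, Pax3, Tfap2a, Tfap2b, Lhx1, Lhx5 and Lbx1 encode transcription factors of the GABAergic lineage. They were chosen by name, as 9 of the 27803 genes that the count tables list, and were followed through every cell class of the cerebellum and of SHH-driven medulloblastoma. Cells of 15 mice were profiled by Drop-seq, which catches single cells in droplets with barcoded beads and counts the 3′ ends of transcripts as unique molecular identifiers (UMIs). The WT group was 5 C57BL/6 cerebella at postnatal day 7 (P7), untreated. The Vehicle and Vismodegib groups were 5 and 5 medulloblastomas of Math1-Cre:SmoM2/EYFPloxP/loxP (M-Smo) mice on the C57BL/6 strain, collected at P15 after 3 daily doses of vehicle or of 75 mg/kg vismodegib, an inhibitor of SMO. In M-Smo mice, Cre acts under the Atoh1 (Math1) promoter, which is used by cerebellar granule neuron progenitors (CGNPs). The transgene is therefore expected in the granule lineage and not in the GABAergic lineage as such. The study also found transgene-bearing cells in astrocytic and oligodendrocytic clusters of these tumors. It cautioned that Cre in Math1-Cre mice may not follow native Atoh1 in full. The droplets were made on a PDMS device for WT and on a glass one for tumors. Age, genotype and device therefore differ together between WT and Vehicle and cannot be told apart.

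The cerebellum draws its neurons from separate germinal zones. The ventricular zone, marked by Ptf1a, gives rise to Purkinje cells and GABAergic interneurons, whereas the rhombic lip, marked by Atoh1, gives rise to granule neurons and unipolar brush cells. Ptf1a is a bHLH factor required for GABAergic fate, Prdm13 is a zinc finger factor that acts with it, Lhx1 and Lhx5 are LIM homeodomain factors of Purkinje cell and interneuron precursors, and Pax2 marks young GABAergic interneurons.

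Of 51841 barcodes, 37946 met the inclusion criteria, 7224 in WT, 18293 in Vehicle and 12429 in Vismodegib. The tables held 2310474 to 17708677 UMIs each, and the median cell of an animal held 1082.5 to 2597 UMIs. Any pair of tables shared at most 13 barcodes. At this depth many transcripts of a cell went uncounted, so the absence of a UMI does not show the absence of the gene. All levels below are UMIs of a gene per 1000000 UMIs (CPM) summed over the cells of a class in 1 animal, given as mean ± SD over 5 animals, and they were compared between classes only within a gene.

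Each of the 9 genes lies at a locus of its own on the GRCm38 (mm10) assembly. In the GENCODE M21 annotation Ptf1a spans chr2:19445663-19447501, Prdm13 spans chr4:21677480-21685963 and Pax3 spans chr1:78101267-78197134. Tfap2b lies at chr1:19208914-19238576, Tfap2a at chr13:40715302-40738376 and Lhx1 at chr11:84518284-84525535. Lhx5 lies at chr5:120431699-120441223, and Pax2 at chr19:44756045-44837871 and Lbx1 at chr19:45232684-45235812 share a chromosome. Antisense genes overlap Ptf1a, Pax2, Tfap2a and Lhx5, but those that the tables listed held at most 28 UMIs in all cells.

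Sequence before a RefSeq start site is shown for 4 of the members, Ptf1a and Prdm13 as the earliest in the order described below, Tfap2b as a member carried by both GABAergic classes, and Lhx1 because its upstream stretch is shared with a noncoding gene that had a similar pattern. The letters are RefSeq sequence on GRCm38.p6, the 250 bases before a RefSeq start site, 5′ to 3′ on the strand of the gene. RefSeq and GENCODE starts differ for some members. The RefSeq start of Tfap2b lies 3140 bases past the first GENCODE start, so its window is inside the locus given above and overlaps none of its exons. Capitals mark CANNTG, the E-box bound by bHLH factors such as PTF1A, which reads the same on both strands. The windows are chr2:19445413-19445662 on the plus strand for Ptf1a, chr4:21685964-21686213 on the minus strand for Prdm13, chr1:19211804-19212053 on the plus strand for Tfap2b and chr11:84525535-84525784 on the minus strand for Lhx1.
Ptf1a: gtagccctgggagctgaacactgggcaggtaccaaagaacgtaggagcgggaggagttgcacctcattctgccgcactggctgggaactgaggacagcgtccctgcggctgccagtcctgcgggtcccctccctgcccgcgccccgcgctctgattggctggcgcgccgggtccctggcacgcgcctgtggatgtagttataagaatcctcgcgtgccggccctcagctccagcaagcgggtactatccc
Prdm13: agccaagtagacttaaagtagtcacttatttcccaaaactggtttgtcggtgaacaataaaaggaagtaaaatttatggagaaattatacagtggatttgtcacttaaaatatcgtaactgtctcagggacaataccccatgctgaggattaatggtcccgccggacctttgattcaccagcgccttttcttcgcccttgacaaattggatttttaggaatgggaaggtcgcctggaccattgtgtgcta
Tfap2b: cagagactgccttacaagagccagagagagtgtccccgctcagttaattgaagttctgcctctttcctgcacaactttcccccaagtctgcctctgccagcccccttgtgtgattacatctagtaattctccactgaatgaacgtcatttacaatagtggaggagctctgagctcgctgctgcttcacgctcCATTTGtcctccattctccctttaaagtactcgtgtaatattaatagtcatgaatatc
Lhx1: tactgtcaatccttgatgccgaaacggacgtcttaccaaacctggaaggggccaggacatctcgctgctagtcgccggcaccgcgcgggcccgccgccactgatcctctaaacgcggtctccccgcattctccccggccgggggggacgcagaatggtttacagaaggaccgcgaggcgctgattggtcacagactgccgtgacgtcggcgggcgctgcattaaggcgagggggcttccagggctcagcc

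Windows were at hand for 6 of the 9 members. Both Tfap2a windows and 1 of the 3 Pax2 windows also lie inside the GENCODE span of their gene. CANNTG stood once in the Tfap2b window, 58 bases before the RefSeq start, and once in each of 2 of the 3 Pax2 windows, of which 1 lies before the first GENCODE start and 1 past it. It was in none of the windows of Ptf1a, Prdm13, Lhx1 or Tfap2a. Of all 32851 windows of this length, 66.2% held it. GCCNNNGGC, the palindrome bound by AP-2 factors such as TFAP2A and TFAP2B, was in 1 Pax2 window and in 13.7% of all windows. A match is a description of these letters and not a bound site.

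In the WT cerebellum, 401 cells fell in a cluster called GABAergic progenitor-like, 671 in an interneuron-like cluster and 108 in a Purkinje-like cluster, of 7224 cells in all. Neither the clustering nor the naming used the members. The names rest on marker genes, of which Kirrel2, Gad1, Calb1 and Pcp2 are 4, so their levels describe the clusters and are no separate check of the names. Kirrel2, a gene of ventricular zone progenitors, was at 291 CPM in progenitor-like and 12.8 CPM in interneuron-like cells. Gad1, which encodes a GABA-synthesizing enzyme, was at 395 ± 70.4 CPM in interneuron-like, 298 CPM in Purkinje-like and 34.8 CPM in progenitor-like cells. Calb1 and Pcp2, which mark Purkinje cells, reached 6168 and 9358 CPM in Purkinje-like cells. Gata2, Gata3 and Tal1, factors of other GABAergic territories, were near 0 in all 3 classes. The members differed in which of the 3 classes held the most of them, and since classes are defined by clustering of the same cells, these levels are a description with no test.

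Ptf1a, Prdm13 and Pax3 were highest in progenitor-like cells. Ptf1a stood at 174, 179, 100, 175 and 117 CPM in progenitor-like cells of WT 1 to 5 (149 ± 37.4 CPM), and at 3.17, 22.2, 0, 9.29 and 7.25 CPM in interneuron-like cells. Every progenitor-like value lay far above every interneuron-like value. Prdm13 was at 123, 163, 100, 248 and 249 CPM in progenitor-like cells (177 ± 69.5 CPM) and 19.3 ± 6.29 CPM in interneuron-like cells, again with no overlap. No UMI of Ptf1a or Prdm13 was found in the 108 Purkinje-like cells, which allows up to 5.86 CPM over the group and up to 2.78% of cells with a UMI, by counting error alone. Pax3, a paired-box factor of dorsal progenitors, fell more slowly across the classes, from 554, 474, 762, 514 and 561 CPM in progenitor-like cells to 101, 162, 169, 135 and 145 CPM in interneuron-like cells, and it had 1 UMI in Purkinje-like cells.

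**Figure D1:**
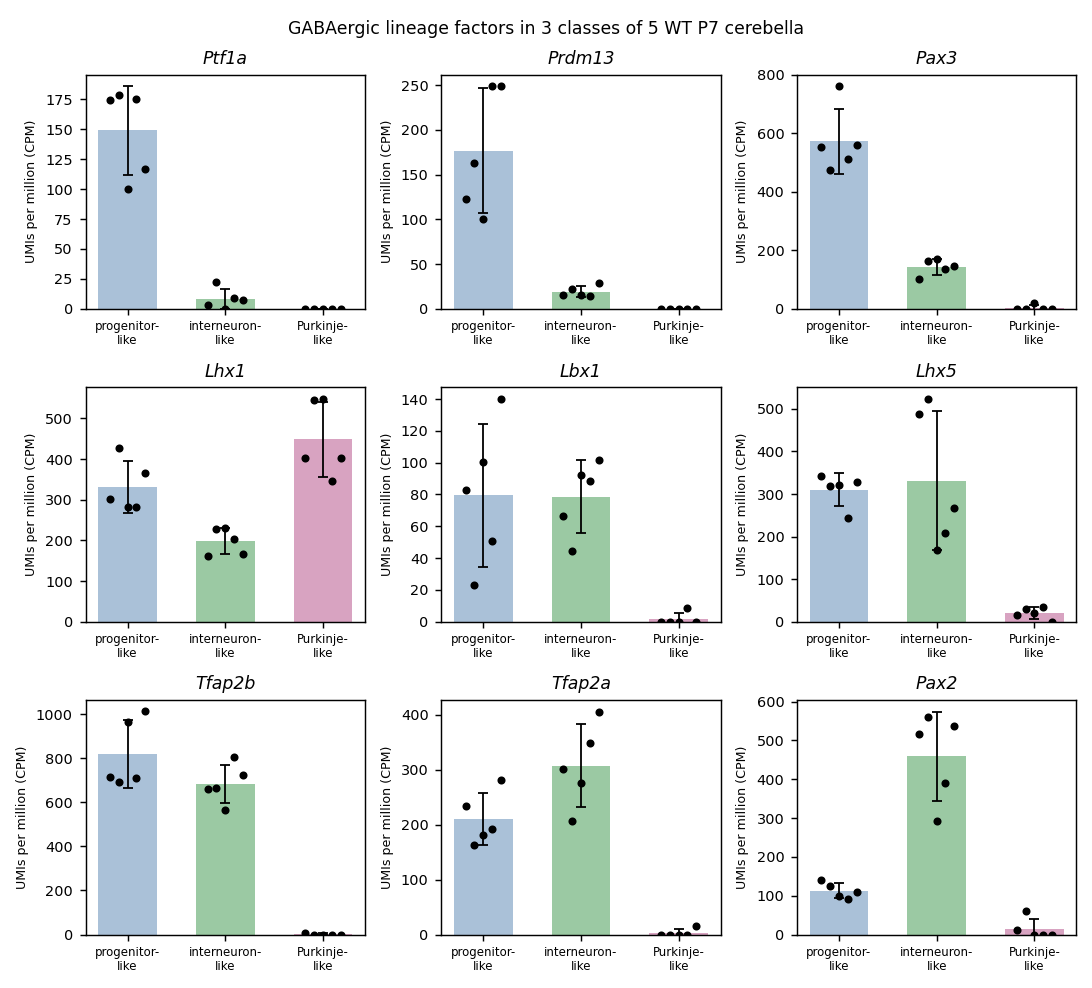
Level of each gene in 3 marker-defined classes of the WT P7 cerebellum. The vertical axis of each panel is CPM, points are the 5 animals, bars are means and error bars are SD. Ptf1a, Prdm13 and Pax3 are highest in progenitor-like cells, Pax2 in interneuron-like cells (459 ± 115 CPM), and Lhx1 is at 449 ± 92.5 CPM in Purkinje-like cells, where the other 8 are at 20.1 CPM or less.

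Tfap2b and Tfap2a, which encode AP-2 factors of the interneuron lineage, were carried by both GABAergic classes. Tfap2b stood at 717, 691, 963, 711 and 1013 CPM in progenitor-like cells and 660, 665, 567, 804 and 725 CPM in interneuron-like cells, and the groups overlapped. Tfap2a was at 210 ± 47.3 CPM in progenitor-like and 308 ± 75.1 CPM in interneuron-like cells, also with overlap. Lbx1, a homeodomain factor best known from the dorsal spinal cord, was at 79.5 ± 45.0 CPM in progenitor-like and 78.5 ± 23.0 CPM in interneuron-like cells. Lhx5 was at 310 ± 39.0 CPM and 332 ± 164 CPM in the same classes. The spread of Lhx5 among interneuron-like cells was wide, with 488 and 524 CPM in WT 1 and WT 2 and 169, 209 and 268 CPM in WT 3 to 5. In Purkinje-like cells these 4 genes had 1 to 10 UMIs each.

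Pax2 was the member with the highest level in interneuron-like cells relative to progenitor-like cells. It stood at 517, 561, 291, 390 and 536 CPM in interneuron-like cells (459 ± 115 CPM) and at 140, 124, 100, 90.3 and 109 CPM in progenitor-like cells (113 ± 19.6 CPM). The lowest interneuron-like value was above the highest progenitor-like value. In Purkinje-like cells Pax2 had 5 UMIs.

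Lhx1 was the only member at a high level in Purkinje-like cells, at 403, 545, 549, 345 and 403 CPM in WT 1 to 5 (449 ± 92.5 CPM). It stood at 332 ± 63.5 CPM in progenitor-like and 198 ± 32.8 CPM in interneuron-like cells. All Purkinje-like values lay above all interneuron-like values, while Purkinje-like and progenitor-like values overlapped. Lhx5, its close relative, was at 20.1 ± 13.5 CPM in Purkinje-like cells. Lhx1 also differed from the other 8 members outside the GABAergic lineage. It was at 498 ± 34.5 CPM in CGNP-like cells and 500 ± 55.1 CPM in granule neuron-like cells, as high as in Purkinje-like cells within the spread between animals. It fell to 203 ± 54.5 CPM in unipolar brush cell-like cells and to means of 52.2 to 65.5 CPM in glial, vascular and microglia-like cells.

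Shares of cells with a UMI followed the same outline. In progenitor-like cells, Tfap2b was seen in 65.3% of cells, Pax3 in 57.4%, Lhx1 in 37.9%, Lhx5 in 33.7%, Tfap2a in 31.2%, Prdm13 in 26.4%, Ptf1a in 21.7%, Pax2 in 16.2% and Lbx1 in 56 of 401 cells. In interneuron-like cells, Pax2 rose to 38.5% of cells, while Pax3 was seen in 13.4%, Prdm13 in 2.24% and Ptf1a in 1.04%. Median depth was 1669 UMIs in progenitor-like, 1120 in interneuron-like and 3103.5 in Purkinje-like cells. Thinned to 500 UMIs a cell, Ptf1a was left in 6.98% of progenitor-like and 0.447% of interneuron-like cells, and Pax2 in 4.74% and 20.3%. Lhx1 was seen in 63.0% of Purkinje-like cells before thinning and 10.2% after it, against 37.9% and 16.2% of progenitor-like cells, so no order of these 2 classes was read from shares.

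Free RNA in the droplets gives UMIs in cells that do not express a gene. Microglia-like cells, with a median of 1682.5 UMIs, served as the class that should lack these genes. Of 96 such cells, none held a UMI of Ptf1a, Prdm13, Pax2 or Tfap2a, 1.04% held Pax3, Lhx5 or Lbx1, 5.21% held Tfap2b and 11.5% held Lhx1. In those classes where a member is low, such as Tfap2b at 23.7 CPM in CGNP-like and 30.9 CPM in granule neuron-like cells against 22.5 ± 24.0 CPM in microglia-like cells, the level cannot be told from this background. Pax3 at 253 ± 77.5 CPM in astrocyte-like cells, where 34.6% of 399 cells held a UMI, was well above it. Ptf1a was at 37.5 ± 17.2 CPM in astrocyte-like cells, from 34 UMIs in 23 cells.

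Cells of the GABAergic classes often held UMIs of several members. At least 2 members were detected in 78.6% of progenitor-like cells, 57.8% of interneuron-like cells, 13.9% of Purkinje-like cells, 10.9% of CGNP-like cells and 1.04% of microglia-like cells. Among progenitor-like cells, 87 held Ptf1a, of which 62 also held Pax3 (71.3%) and 33 also held Prdm13 (37.9%, or 31.1% of the 106 cells with Prdm13). By contrast, 6 of these 87 cells held Pax2 (6.90%, or 9.23% of the 65 cells with Pax2). Lhx5 was in 44 of the 65 progenitor-like cells with Pax2 (67.7%). In interneuron-like cells, 134 cells held both Pax2 and Tfap2b, which is 51.9% of the 258 cells with Pax2 and 42.9% of the 312 cells with Tfap2b. These joint shares lie near those over the whole class, 46.5% for Tfap2b and 38.5% for Pax2. Over all progenitor-like cells the shares were 57.4% for Pax3, 33.7% for Lhx5, 26.4% for Prdm13 and 16.2% for Pax2. Joint counts were not thinned, though median depth differed between the classes.

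To order the members, the 1072 progenitor-like and interneuron-like cells were placed along their first principal component, computed without the members and without genes of known timing such as Mki67, Meg3, Sox2, Gad1 and Gad2, and cut into 5 bins of 214 or 215 cells. Bin 1 held only progenitor-like cells, bin 2 held 171 progenitor-like and 43 interneuron-like cells, bin 3 held 15 and 200, and bins 4 and 5 held only interneuron-like cells. The position of a gene in an animal was the mean bin weighted by its CPM, so a low position means early. Genes with known timing fell at Sox2 1.72 ± 0.20, Mki67 1.92 ± 0.20, Gad2 3.84 ± 0.15, Gad1 4.08 ± 0.12 and Meg3 4.23 ± 0.20. The component was turned so that its late end went with Meg3, so a late place of Meg3 was set in advance. Several of the genes that led its early end were cell cycle genes, so an early place of Mki67 was nearly set too. Gad1 and Gad2 are among the markers that named the interneuron-like cells of bins 4 and 5. Their late places are therefore no separate check of the order.

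Ptf1a came first of the members, at 1.33 ± 0.19 (SD, n = 5). Prdm13 followed at 1.82 ± 0.22 and Pax3 at 2.04 ± 0.06. Ptf1a preceded Prdm13 in 5 of 5 animals, by 0.48 ± 0.39 bins, a size that WT 3 decided. In WT 3 the gap was 1.18 bins, from 5 UMIs of Ptf1a and 6 of Prdm13, and without it the mean gap was 0.310 ± 0.0448 bins (SD, n = 4). Prdm13 preceded Pax3 in 4 of 5, by 0.22 ± 0.26 bins, which is within its spread. In bins 1 to 5 Ptf1a ran from 192 CPM to 81.4, 8.65, 0 and 1.70 CPM. Prdm13 stood at 181, 153, 44.6, 2.30 and 16.2 CPM, and Pax3 at 563, 558, 271, 110 and 43.4 CPM. The fall of Ptf1a was already under way in bin 2, where Prdm13 and Pax3 were near their levels of bin 1.

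Lhx1, Lbx1, Lhx5 and Tfap2b formed a middle set whose positions did not separate beyond their spread, at 2.60 ± 0.20, 2.77 ± 0.20, 2.82 ± 0.27 and 2.87 ± 0.25. Pax3 preceded each of them in 5 of 5 animals. The mean of Lhx1 was highest in bin 2, at 462 CPM, as was its level in 3 of 5 animals, and that of Lhx5 in bin 3, at 526 CPM, as in 4 of 5 animals. Lbx1 had no bin that held its highest level in all animals. It was highest in bin 2 in WT 1, 2 and 3, in bin 3 in WT 4 and in bin 1 in WT 5, and its bin levels rest on 14 to 37 UMIs. Tfap2b was spread most evenly, with a mean of 620 to 1030 CPM in every bin. Tfap2a, at 3.09 ± 0.09, came after Lhx1 in 5 of 5 animals, but it did not separate beyond the spread from Tfap2b, by 0.23 ± 0.26 bins, or from Lhx5, by 0.28 ± 0.33 bins with Lhx5 first in 3 of 5 animals. Its mean was highest in bin 3, at 378 CPM, and it was highest in bin 3 in 2 animals and in bin 4 in 3.

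Pax2, at 3.48 ± 0.09, came last. Pax2 stood at 85.1 CPM in bin 1 and 174 CPM in bin 2, reached 590 and 567 CPM in bins 3 and 4, and was at 281 CPM in bin 5. It came after each of the other 8 members in 5 of 5 animals and after Tfap2a by 0.38 ± 0.07 bins. Pax2 still preceded Gad2, by 0.37 ± 0.13 bins, and Gad1 in 5 of 5 animals.

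**Figure D2:**
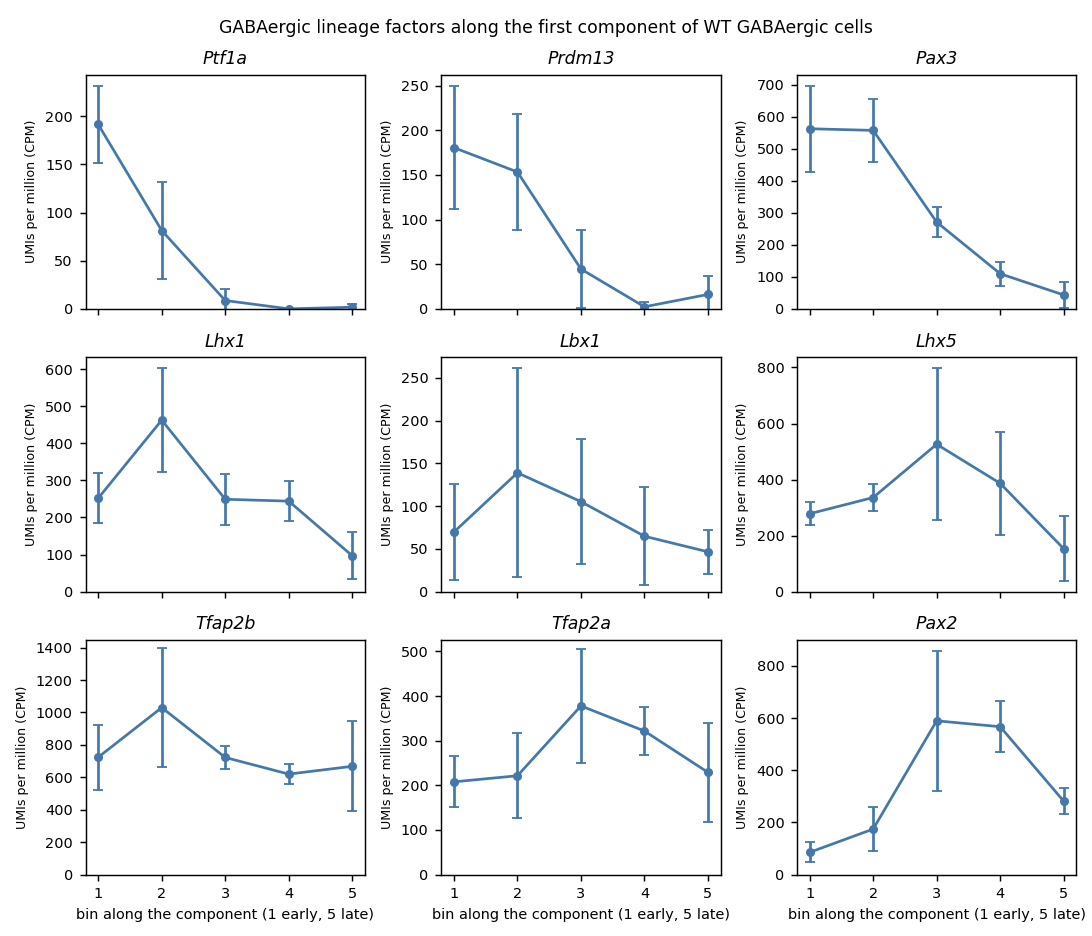
Level of each gene along the first principal component of WT progenitor-like and interneuron-like cells. The horizontal axis is the bin (1 early, 5 late), the vertical axis is CPM, points are means over 5 animals and error bars are SD. Ptf1a is highest in bin 1 and near 0 from bin 3 on, and Pax2 is highest in bins 3 and 4.

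The genes most like each member were found by Pearson's r of log2(CPM + 10) over 55 profiles, 11 classes in 5 animals, among 4732 genes. The profiles share animals and libraries, so r is given without a test. Ptf1a was most like Kirrel2 (r = 0.894), Ptx3 (0.862) and Dbx2 (0.834). Prdm13 was most like Dbx2 (0.855), Optc (0.818) and Ptf1a itself (0.810). Pax2, Tfap2a, Tfap2b, Lhx5 and Lbx1 had each other or Skor1, a corepressor gene, as their 3 nearest genes, with Tfap2a and Tfap2b the closest pair of members (0.922). Pax3 was most like Pou3f2 (0.871), a POU factor gene of neural progenitors.

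The gene most like Lhx1 was 1500016L03Rik (r = 0.885), listed in RefSeq as Lhx1os, a noncoding gene that starts 125 bases from the start of Lhx1 on the opposite strand and does not overlap it. 1500016L03Rik was at 1149 ± 88.1 CPM in Purkinje-like cells, 439 ± 91.0 CPM in progenitor-like, 324 ± 50.2 CPM in interneuron-like, 479 ± 147 CPM in CGNP-like and 17.7 ± 17.5 CPM in microglia-like cells. Of 68 Purkinje-like cells with an Lhx1 UMI, 63 also held 1500016L03Rik, of 95 that held the latter. The other genes most like Lhx1 were Calm2 (0.862) and Hsp90aa1 (0.818), both widely expressed genes.

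The members were next followed in the granule lineage, the CGNP-like and granule neuron-like cells, where the tumors arise. WT held 4098 such cells, Vehicle 14562 and Vismodegib 9765. Of the 9 members, 6 passed the filter on low counts for Vehicle against WT. Lhx1 did not pass the test, and the other 5, Pax2, Pax3, Tfap2a, Tfap2b and Lhx5, were lower in Vehicle (edgeR quasi-likelihood test with Benjamini-Hochberg adjustment over 12120 genes). Of those genes, 42.6% were called in either direction and 22.2% were called lower, and these 5 members were high in the WT group, through which they could pass the filter, so their count is not read against it and their fold changes are given as a description.

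Lhx1 stood at 447, 483, 534, 527 and 498 CPM in the granule lineage of WT 1 to 5, at 520, 529, 436, 557 and 498 CPM in Vehicle 1 to 5, and at 537, 476, 390, 516 and 382 CPM in Vismodegib 1 to 5. The 3 groups overlapped. The log2 fold change of Vehicle over WT was -0.11 ± 0.13 (SE, adjusted p = 0.522 by edgeR), and it was 0.09 with no filter on low counts. That of Vismodegib over Vehicle was -0.14 ± 0.14 (adjusted p = 0.570 by edgeR).

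Pax3 stood at 36.8, 52.4, 32.2, 54.1 and 53.0 CPM in the granule lineage of WT and at 3.62, 4.96, 2.20, 4.37 and 4.10 CPM in that of Vehicle. The groups did not overlap, and the log2 fold change was -3.66 ± 0.25. Pax2 stood at 13.5 ± 5.07 CPM in WT and 0.334 ± 0.228 CPM in Vehicle (log2 fold change -5.29 ± 0.46), from 108 and 10 UMIs. For Tfap2b the means were 25.8 and 1.91 CPM, for Lhx5 they were 13.8 and 0.951 CPM, and for Tfap2a they were 7.98 and 1.55 CPM, with log2 fold changes of -3.92 ± 0.45, -3.90 ± 0.44 and -2.63 ± 0.46. Of the 48 Tfap2b UMIs in Vehicle, 35 lay in 89 cells whose nearest WT cells were GABAergic or Purkinje-like, as described below. Without these cells, a choice made after seeing the data, Tfap2b was at 0.445 ± 0.340 CPM in Vehicle. In WT microglia-like cells Pax3 was at 3.72 CPM, Tfap2b at 22.5 CPM, Lhx5 at 3.37 CPM, and Pax2 and Tfap2a had no UMI, which allows up to 14.9 CPM over the class. In vascular fibroblast-like cells Pax3 was at 6.24 CPM, Tfap2b at 17.5 CPM, Lhx5 at 17.1 CPM, Pax2 at 8.25 CPM and Tfap2a at 2.12 CPM, from 1 to 7 UMIs each. Every WT granule lineage value of Pax3, from 32.2 CPM up, lay above the highest value of either class in any animal, 21.2 CPM. In WT endothelial-like cells, however, Pax3 had 2 UMIs and reached 32.7 CPM in an animal, above the lowest granule lineage value. For none of these genes was the part of free RNA from the GABAergic cells of the same cerebella tested.

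Ptf1a, Prdm13 and Lbx1 were too low in the granule lineage to be tested. Ptf1a averaged 0.886 CPM in WT and 0.0792 CPM in Vehicle, from 7 and 2 UMIs. Lbx1 averaged 2.76 and 0.197 CPM, from 21 and 5 UMIs. Prdm13 averaged 2.02 and 1.67 CPM.

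**Figure D3:**
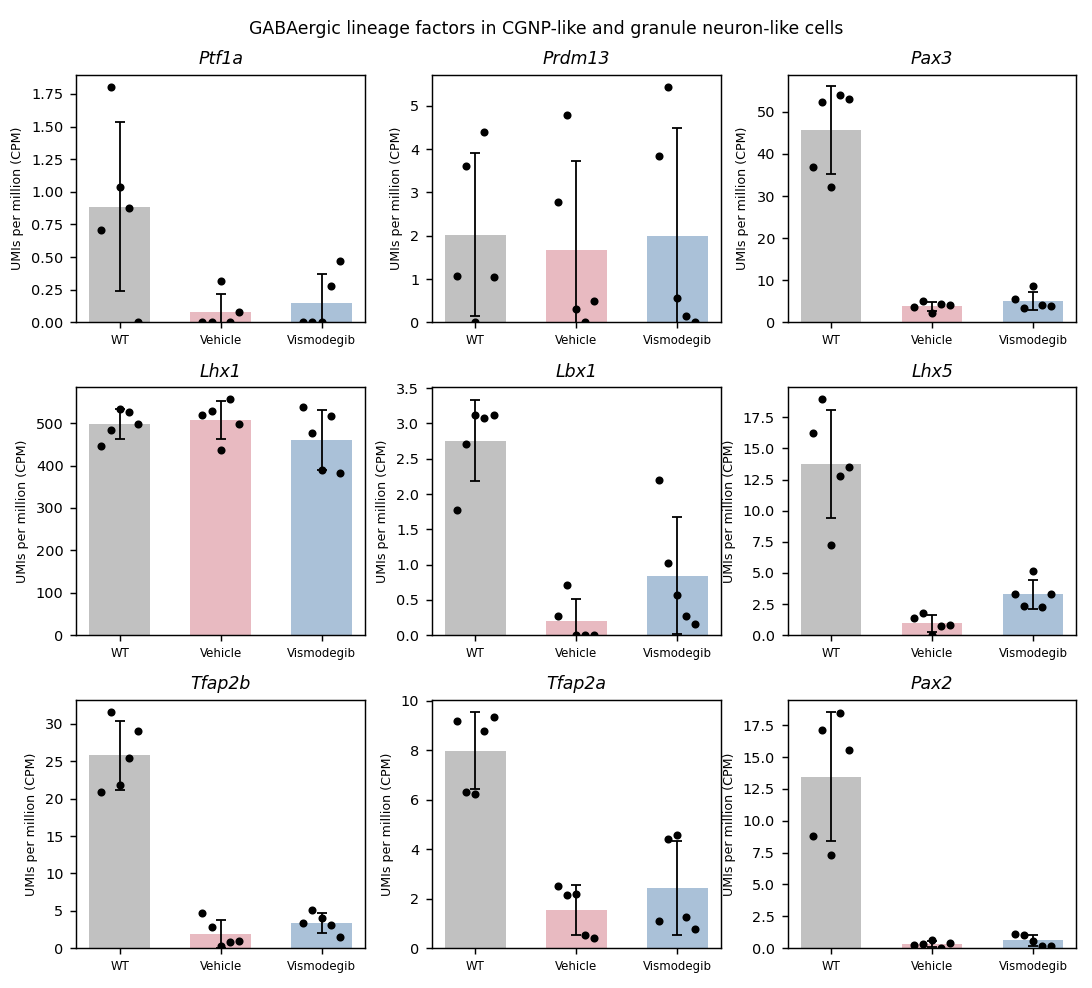
Level of each gene in CGNP-like and granule neuron-like cells of the 3 groups. The vertical axis is CPM, points are the 5 animals of a group, bars are means and error bars are SD. Lhx1 has means of 498 CPM in WT, 508 CPM in Vehicle and 460 CPM in Vismodegib. Each of the other 8 genes is below 5 CPM in every Vehicle tumor, against a mean of 45.7 CPM for Pax3 in WT.

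With all cells of an animal summed, the contrast between tumors and WT cerebella was wider. In such sums, fewer cells of a type and less RNA per cell cannot be told apart. All 9 members were tested, 8 were lower and Lhx1 was higher in Vehicle, in a comparison in which 48.0% of 13636 genes were called and 25.0% were called lower. The 8 were high in WT, through which they could pass the filter, so a call of lower was nearly fixed, the count is not read against the 25.0%, and the fold changes are a description. Ptf1a fell from 16.9, 17.6, 5.15, 12.4 and 11.9 CPM in WT to 0, 0, 0.238, 0 and 0.0597 CPM in Vehicle, that is from 190 UMIs to 2 (log2 fold change -7.42 ± 0.55). Pax2 fell from a mean of 48.5 to 0.401 CPM (-6.88 ± 0.40), Tfap2b from 114 to 1.98 CPM (-5.92 ± 0.35), Lhx5 from 51.6 to 0.854 CPM (-5.86 ± 0.42) and Lbx1 from 12.3 to 0.217 CPM (-5.81 ± 0.61). Tfap2a fell from 39.7 to 1.37 CPM (-5.01 ± 0.41) and Pax3 from 88.6 to 5.73 CPM (-3.94 ± 0.19). The value of Lbx1 was -7.01 without Vehicle 2 and -5.13 without Vehicle 5. With the WT GABAergic and Purkinje-like cells left out, a setting chosen after seeing the data, the log2 fold changes were smaller, at -5.01 for Pax2, -3.83 for Tfap2b, -3.89 for Lhx5, -2.73 for Tfap2a and -3.30 for Pax3.

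Prdm13 had the smallest fall of these 8, from a mean of 14.5 to 1.74 CPM (-3.11 ± 0.64), and its WT and Vehicle values overlapped. Without Vehicle 2 its log2 fold change was -3.96, against -3.90 for Pax3, so its place as the smallest rests on that tumor. With the WT GABAergic and Purkinje-like cells left out, its log2 fold change was -0.89 and did not pass the test (adjusted p = 0.341 by edgeR). Lhx1 stood at 333, 366, 401, 392 and 364 CPM in WT and at 534, 542, 434, 546 and 485 CPM in Vehicle. The groups did not overlap, and the log2 fold change was 0.43 ± 0.12 (adjusted p = 0.0112 by edgeR). Granule lineage cells, where Lhx1 is high, made up 56.7% of WT cells and 79.6% of Vehicle cells, and within that lineage Lhx1 did not pass the test. With unnamed and unipolar brush cell-like clusters added, a choice made after seeing the data, these shares were 70.1% and 93.9%. The log2 fold change of Lhx1 was then 0.14. Whether such shares account for the call in all cells was not tested.

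Most members were too low to be tested between Vismodegib and Vehicle, in comparisons that share the Vehicle tumors with those above. With 3 members tested in each, the counts of calls are not read against the shares of all genes. In the granule lineage, 3 members could be tested and none was called, where 14.9% of 12108 genes were called. Pax3 had a log2 fold change of 0.33 ± 0.33 (adjusted p = 0.565), Tfap2b of 0.80 ± 0.57 (adjusted p = 0.392) and Lhx1 of -0.14 ± 0.14, all by edgeR. Without adjustment none of the 3 had p under 0.05.

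Lhx5 did not pass the filter, but its granule lineage values did not overlap. They were 1.39, 1.77, 0, 0.770 and 0.820 CPM in Vehicle and 3.30, 2.37, 5.13, 2.23 and 3.32 CPM in Vismodegib, from 28 and 59 UMIs. Of 18202 genes with at least 10 UMIs in these cells, 8.97% had values that did not overlap between Vehicle and Vismodegib. Part of these Lhx5 UMIs lay in a few cells, those whose nearest WT cells were GABAergic or Purkinje-like, as described below. They numbered 89 in the granule lineage of Vehicle and held 14 of its 28 Lhx5 UMIs, and they numbered 48 in that of Vismodegib and held 45 of 59. Without them, a choice made after seeing the data, Lhx5 was at 0.421 ± 0.288 CPM in Vehicle and 0.583 ± 0.368 CPM in Vismodegib, from 14 UMIs in each, and the groups overlapped. Leaving out cells matched mostly to GABAergic classes, where Lhx5 is high in WT, was bound to lower it. What set the Lhx5 values of the 2 groups apart was not tested. With no filter on low counts the log2 fold change was 1.59 and did not pass the test (adjusted p = 0.0629 by edgeR). Among the 3 and 3 tumors with the lower serial numbers in their titles the means were 1.05 and 3.60 CPM, and among the 2 and 2 with the higher ones 0.795 and 2.77 CPM.

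With all cells summed, Pax3 was the only member called of 3 tested, in a comparison that called 13.9% of 13190 genes. It stood at 6.88, 5.50, 3.10, 6.51 and 6.63 CPM in Vehicle 1 to 5 and at 11.1, 6.68, 13.9, 15.9 and 14.4 CPM in Vismodegib 1 to 5. The lowest Vismodegib value lay within the Vehicle range, and the other 4 were above it. The log2 fold change was 1.09 ± 0.29 (adjusted p = 0.0228 by edgeR), and the call was lost without Vehicle 2 (adjusted p = 0.0581), Vismodegib 4 (0.0706) or Vismodegib 5 (0.0600). Astrocyte-like cells held 55 of 230 Pax3 UMIs in Vehicle (23.9%) and 245 of 383 in Vismodegib (64.0%). They made up 0.485 to 1.73% of the cells of a Vehicle tumor and 1.56 to 7.04% of those of a Vismodegib tumor. Their share did not follow Pax3 in every tumor, at 1.56% in Vismodegib 3 (Pax3 13.9 CPM) and 1.73% in Vehicle 4 (6.51 CPM). Within astrocyte-like cells Pax3 was at 129 ± 88.5 CPM in Vehicle and 183 ± 50.4 CPM in Vismodegib, and in the granule lineage it was not called. Whether the share of astrocyte-like cells accounts for the call was not tested.

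Lhx1 varied widely between the clusters of the tumors. The 4 CGNP-like, 4 granule neuron-like and 3 unnamed clusters were compared by number, a choice made after values had been seen, each by an exact permutation test of Vismodegib against Vehicle. Mean levels ran from 187 ± 51.1 CPM in the Vismodegib cells of cluster 6, led by Calb2 and Pcp4, to 1121 ± 138 CPM in the Vehicle cells of cluster 8, an unnamed cluster led by Pdzrn3, Chrna3 and Robo3. Cluster 7, granule neuron-like and led by Pnoc, Cntn2 and Tex14, was at 861 ± 56.4 CPM in Vehicle and 814 ± 96.3 CPM in Vismodegib. Pooled over the tumors of a group, cluster 6 held 183 cells in Vehicle and 2342 in Vismodegib. Cluster 5, at 369 ± 73.5 and 316 ± 53.4 CPM, held 725 and 2065.

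Summed over granule neuron-like clusters, Lhx1 stood at 553, 693, 533, 627 and 623 CPM in Vehicle and at 455, 374, 413, 437 and 287 CPM in Vismodegib, with no overlap. Over the whole granule lineage, 8.97% of 18202 genes did not overlap between these groups, and the share within granule neuron-like cells was not counted. Pooled over tumors, clusters 7, 9 and 5 held most of this class in Vehicle, and clusters 6 and 5 in Vismodegib. Cluster 6 held 96, 207, 108, 938 and 993 cells in Vismodegib 1 to 5, so its pooled count came mostly from Vismodegib 4 and 5. In Vismodegib 1 and 2 it held fewer cells than cluster 5 (217 and 373) and cluster 7 (210 and 260). Whether the make-up of this class accounts for its Lhx1 values was not tested. Within clusters, no difference passed 0.05 after adjustment over the 11 tests. The lowest were cluster 9, with 478 ± 94.5 CPM in Vehicle and 299 ± 103 CPM in Vismodegib (exact permutation p = 0.0159, adjusted p = 0.0873), and cluster 10, an unnamed mitotic cluster with 323 ± 89.0 and 566 ± 58.4 CPM (exact permutation p = 0.00794, adjusted p = 0.0873). These 2 differences had opposite directions. In cluster 10 the groups did not overlap, at 212 to 427 CPM in Vehicle and 499.8 to 627 CPM in Vismodegib. The share of all genes that did not overlap in this cluster was not counted. The smallest p that 5 against 5 tumors can give in a 2-sided test is 0.00794, and held by 1 cluster alone it would adjust to 0.0873, so no single cluster could pass on its own.

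**Figure D4:**
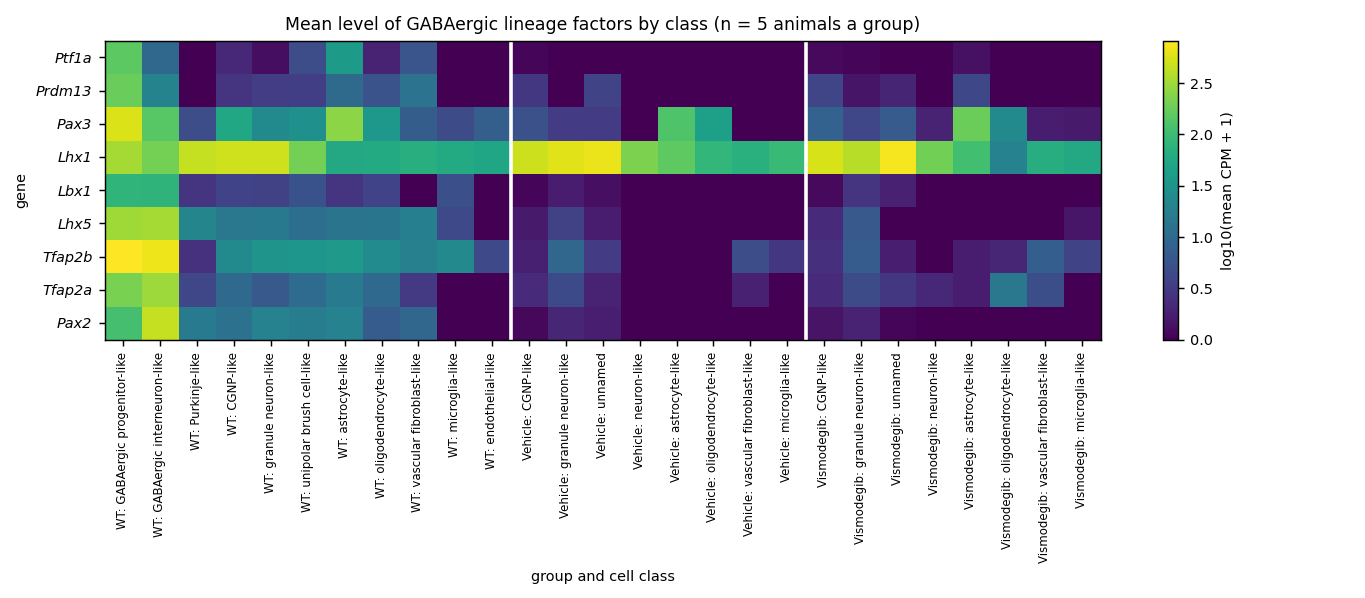
Mean level of the 9 genes in each class of each group. Columns are classes of WT, Vehicle and Vismodegib, rows are genes, and color is log10 of the mean CPM plus 1 over 5 animals. Outside the 2 WT GABAergic classes, Lhx1 stands out in Purkinje-like and granule lineage cells and in the unnamed tumor clusters, and Pax3 in astrocyte-like cells.

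To look for GABAergic cells in the tumors, each of 30722 tumor cells was given the class that held a majority of its 5 nearest WT cells. The members were left out, and cells with no majority class were counted with those nearest to other classes. A total of 157 cells (0.511%) were nearest to a GABAergic or Purkinje-like class, 41 to progenitor-like, 115 to interneuron-like and 1 to Purkinje-like cells. Their share was 1.04, 0.537, 0.728, 0.403 and 0.321% of cells in Vehicle 1 to 5 and 0.876, 0.274, 0.839, 0.312 and 0.537% in Vismodegib 1 to 5. The groups overlapped, and the difference of -0.0381 percentage points did not pass a 2-sided exact permutation test (p = 0.833). This share pools parts that were not tested on their own. Cells nearest to progenitor-like cells numbered 8, 6, 9, 1 and 12 in Vehicle 1 to 5 and 1, 0, 0, 1 and 3 in Vismodegib 1 to 5. Those nearest to interneuron-like cells numbered 26, 13, 3, 6 and 13 in Vehicle and 14, 7, 7, 12 and 14 in Vismodegib. No tumor cluster was named GABAergic-like, and most of these cells lay in clusters of the granule lineage. Of the 115 nearest to interneuron-like cells, 77 were in granule neuron-like and 25 in CGNP-like clusters, and of the 41 nearest to progenitor-like cells 35 were in CGNP-like clusters.

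The 115 cells nearest to WT interneuron-like cells carried the interneuron members. Tfap2b was detected in 35.7% of them and in 0.150% of the 30565 tumor cells nearest to other classes. Lhx5 was detected in 30.4% against 0.0982%, Tfap2a in 18.3% against 0.193%, Pax3 in 9.57% against 1.28%, Lbx1 in 7.83% against 0.0294% and Pax2 in 6.96% against 0.0425%. Lhx1 went the other way, with 33.9% against 47.6%. At least 2 members were detected in 39.1% of the 115 cells and in 0.929% of the others. In WT interneuron-like cells the shares were 46.5% for Tfap2b, 31.3% for Lhx5, 28.6% for Tfap2a, 13.4% for Pax3, 8.94% for Lbx1 and 38.5% for Pax2.

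The 157 cells held most of the tumor UMIs of some members and few of those of others. They held 63 of 93 UMIs of Lhx5 (67.7%), 89 of 139 of Tfap2b (64.0%), 11 of 20 of Lbx1 (55.0%), 11 of 24 of Pax2 (45.8%) and 28 of 91 of Tfap2a (30.8%). They held 6 of 86 UMIs of Prdm13 (6.98%), 23 of 613 of Pax3 (3.75%), 90 of 31740 of Lhx1 (0.284%) and 0 of 8 of Ptf1a. The 41 cells nearest to progenitor-like cells thus held no UMI of Ptf1a, which was seen in 21.7% of WT progenitor-like cells. Whether the 157 cells were doublets or carried free RNA was not tested.

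**Figure D5:**
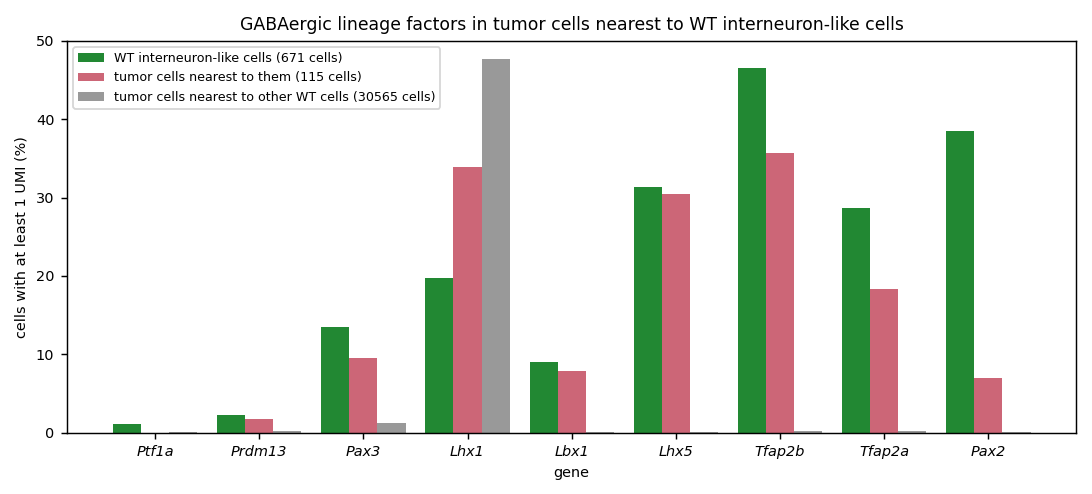
Share of cells with at least 1 UMI of each gene. The vertical axis is percent of cells, with bars for 671 WT interneuron-like cells, 115 tumor cells nearest to them and 30565 tumor cells nearest to other WT cells. Tfap2b is in 46.5, 35.7 and 0.150% of these cells, and Pax2 in 38.5, 6.96 and 0.0425%.

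A companion list of 25 other genes of GABAergic neurons and of the germinal zones around them was followed in the same fits. Not all of them mark the cerebellar GABAergic lineage, since Olig3 had no UMI in the 3 GABAergic classes of WT and Gata2, Gata3 and Tal1 had at most 1 UMI in each. With all cells summed, 17 could be tested for Vehicle against WT, of which 12 were lower, 2 higher and 3 not called, where 48.0% of all genes were called and 25.0% were called lower. Companions that are high in WT could pass the filter through WT, as the members could, so this count is not read against those shares. The lower ones included Kirrel2 (log2 fold change -9.13), Calb1 (-7.05), Skor1 (-4.43) and Gad1 (-4.27), and the higher ones were Pvalb (1.11), which encodes the calcium-binding parvalbumin, and Foxp2 (0.97), a forkhead factor gene. In the granule lineage 12 companions were tested, of which 5 were lower, 3 higher and 4 not called, where 42.6% of all genes were called, and Sox2, a progenitor factor gene, was higher (1.33).

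For Vismodegib against Vehicle in the granule lineage, 10 companions were tested, 3 were higher, 1 was lower and 6 were not called, where 14.9% of all genes were called. Pvalb (0.86 ± 0.22, adjusted p = 0.0150), Rora, a nuclear receptor gene (0.89 ± 0.22, adjusted p = 0.0151), and Pcp2 (1.17 ± 0.36, adjusted p = 0.0435) were higher and Sox2 was lower (-1.07 ± 0.33, adjusted p = 0.0403), by edgeR. With all cells summed, 14 were tested, and Pvalb, Rora and Pcp2 were higher and none was lower, where 13.9% of all genes were called. The median log2 fold change was -0.15 over the companions tested in the granule lineage and 0.00 over all genes.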

How the data were processed

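The authors processed the reads with bcl2fastq 2.18 and STAR, per the submitters' processing notes, against mm10 with the transgene sequences added, hg19 serving a human spike-in of the tumor runs, and deposited raw UMI counts per gene and barcode before their cell filter, 1 table per animal, without normalization. The release of their gene models was not stated in the sources read. Genes that a table does not list were read as having no UMI.

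Barcodes were kept with at least 500 UMIs, at least 500 genes, and no more than 5 SD above the animal's median for UMIs, genes and mitochondrial share. These upper limits were the only step against doublets. WT and tumor cells were clustered separately after the Seurat rules of the study, rewritten in Python 3.11.15 (igraph 0.11.9 and scikit-learn 1.9.0, with scipy 1.17.1, numpy 2.4.6 and pandas 2.3.3), with variable genes of mean 0.125 to 3 and dispersion z above 0.5 in 20 bins, 30 neighbors, resolution 0.8 and the best of 10 starts. Clusters were named from marker lists of at least 3 detected genes. A hemoglobin list was dropped from naming after the clusters had been seen, because free hemoglobin RNA led several of them.

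Counts were summed per animal and tested with edgeR 4.0.16 in R 4.3.3 (quasi-likelihood test, TMM scaling, filterByExpr, Benjamini-Hochberg adjustment over all genes tested, called at an adjusted p under 0.05). The SE of a log2 fold change was its size divided by the square root of F. The code was tested on simulated data. Alternatives were DESeq2 1.42.0, RLE size factors, no filter on low counts, a limit of 4 SD, resolution 1.2, 10 bins, 15 neighbours, the members taking part in clustering, leaving out each animal, tumors within the lower or higher serial numbers, a serial number term, cell cycle genes left out, and a replicate block. Tumor cells were matched to the 5 nearest WT cells in the WT components. Intervals and floors cover counting error only, with a floor of 3 counts.

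The members and lists were chosen with earlier results of these data known. Genes named in the text are the 9 members, the 25 companion genes and, for each member, the 3 genes most like it over class profiles, among genes with a class mean of at least 100 CPM. Also named, outside that rule, are marker genes of known timing (Mki67 and Meg3) and the leading genes of the tumor clusters described for Lhx1, which were chosen after values were seen. Separate animals are the replicates. The labels do not say that same-numbered animals share a litter, a batch or a day. Same-numbered tumors have neighbouring serial numbers, and the study gave both treatments to littermates, and whether they shared a litter was not tested. Dose and age of the tumors come from the methods of the study. Results that rest on some other genes are not reported here.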

Additional observations from a re-analysis of the deposited data

Results flagged for a closer look

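Of 75 groups of 5 animals screened, 3 held an animal that stood apart from the other 4, and chance alone gives about 1 in 20 such groups. In WT 4, Lhx5 was at 242.7 CPM in GABAergic progenitor-like cells, while the other animals lay between 318 and 343 CPM. In WT 3, Ptf1a had a position of 1 along the GABAergic component, while the others lay between 1.33 and 1.46, and the position of WT 3 rests on 5 UMIs. In WT 2, Tfap2a had a position of 2.95, while the others lay between 3.09 and 3.15.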

How the results depend on the processing

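The 4 counts of called genes stayed within 1.5 times of the reported count under all 65 alternatives. With 1 animal left out, they ran from 1330 to 2167 genes for Vismodegib against Vehicle in the granule lineage, from 1273 to 2131 in all cells, from 4500 to 5233 for Vehicle against WT in the granule lineage and from 5808 to 6731 in all cells. With the replicate number as a block (replicate block) they were 1781, 1866, 4494 and 5712. Deviations of same-numbered tumors correlated at -0.140 to 0.468 over both comparisons of Vismodegib and Vehicle, with 0.347 to 0.468 for numbers 4 and 5, so the numbers were not taken to pair the animals, and the block left the share difference of -0.0381 percentage points with p = 0.6875 by an exact permutation test. Of 337 refits of the members' log2 fold changes, 331 kept their direction and call. Lhx1 in the granule lineage of Vehicle against WT turned to 0.0902 with no filter on low counts and to 0.14 with unnamed and unipolar brush cell-like clusters added, a choice made after seeing the data. Pax3 in all cells of Vismodegib against Vehicle lost its call without Vehicle 2, Vismodegib 4 or Vismodegib 5, and Prdm13 lost its call in Vehicle against WT without GABAergic and Purkinje-like cells, also added after seeing the data. Ptf1a and Lbx1 did not pass the filter on low counts in that setting and have no value there. The share of tumor cells nearest to WT GABAergic cells, never called, turned to a difference of 0.0153 percentage points with 15 neighbours and 0.0626 within the higher serial numbers, and ran from -0.115 to 0.0704 with 1 tumor left out. Where a call or direction changed, the cause was not tested. Of 216 refits of WT levels, 215 moved by less than 1 SD, the exception being Prdm13 in interneuron-like cells, at 12.6 CPM when the members took part in the clustering. No position along the component moved by more than its SD in 18 refits. Depth limits Ptf1a, Prdm13, Pax2 and Lbx1 in tumors most, with 8, 86, 24 and 20 UMIs in 30722 cells.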

Other observations

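Prdm13 in the granule lineage of the tumors followed the serial number in the sample titles, a split noticed in the values and given with no test. It stood at 2.78 and 4.78 CPM in Vehicle 1 and 2 and at 3.84 and 5.42 CPM in Vismodegib 1 and 2, the 4 tumors with serial numbers 4 to 7, from 60 UMIs. In the 6 tumors with serial numbers 9 to 15 it lay between 0 and 0.571 CPM, from 9 UMIs. The other 8 members overlapped between these tumors, and of 18202 genes with at least 10 UMIs in these cells 1.01% did not. What else differed between these tumors was not tested.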
